A study of Homo sapiens with 24 samples.

Results

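The genes described here are 36 hepatocyte identity genes, a list of plasma proteins, receptors, enzymes and nuclear regulators by which liver parenchymal cells are usually recognised. The rule that picks them uses gene symbols and no measured value, although the list was drawn up with earlier results of these data known, and 34 of the 36 had at least 1 array probe with a single gene symbol. HNF4A and NR1H4 were not analysed here. The 34 genes carried 53 probes, 10 of them had more than 1 probe, and they stand beside 20046 genes with a named probe in the whole series.

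RNA was measured on Illumina bead arrays in 24 samples of cells labelled Huh-7, an established line from a human hepatocellular carcinoma. Stable lines had received lentiviral particles with a short hairpin RNA against HIF1A (shHIF1A) or NDRG3 (shNDRG3), and the shGFP line, labelled as depleted of GFP, served as their control. HIF1A makes the alpha subunit of the transcription factor HIF-1, which is stable when oxygen is low, and NDRG3 is a relative of the hypoxia-induced gene NDRG1. The shHIF1A line spent 3 h (n = 3 arrays), 6 h (n = 2) or 12 h (n = 2) at 1% oxygen, and the shNDRG3 line 6, 12 or 24 h (n = 2 at each time). The shGFP line spent 3 h (n = 3), 6, 12 or 24 h (n = 2 at each time) at 1% oxygen or stayed in normoxia (n = 2). Every line thus carries a hairpin, the labels give 1 line per target without saying whether it is a clone, and knockdown arrays in normoxia were not analysed here. Whether replicates came from separate cultures is not stated, and p-values therefore reflect nothing beyond the spread among these arrays, which may be technical.

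Hepatocytes make most proteins of blood plasma, among them albumin, the apolipoproteins, the fibrinogen chains and complement C3, and they clear glycoproteins through the asialoglycoprotein receptor. Their mitochondria start the urea cycle with CPS1, and their microsomes hold cytochrome P450 enzymes and esterases. Transcription of these genes is kept up by a small set of nuclear regulators, including HNF1 and HNF4 proteins, the forkhead factors FOXA1, FOXA2 and FOXA3, and CEBPA, which bind promoters and enhancers of liver genes. The Huh-7 line is known for secreting albumin, alpha-fetoprotein and other plasma proteins into its medium.

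The promoter windows printed here show where the letters of such regulators lie in members on which the results turn. VTN and FOXA1 are 2 members whose signal was lower in both knockdown lines, and ALB and AFP are the classical secreted products of adult and fetal hepatocytes. Each window runs from 250 bases before to 50 bases after the RefSeq gene start (GRCh38.p14), is written 5′ to 3′ in the direction of the gene, and has its motif matches in capitals.
VTN, chr17:28370258-28370557, minus strand: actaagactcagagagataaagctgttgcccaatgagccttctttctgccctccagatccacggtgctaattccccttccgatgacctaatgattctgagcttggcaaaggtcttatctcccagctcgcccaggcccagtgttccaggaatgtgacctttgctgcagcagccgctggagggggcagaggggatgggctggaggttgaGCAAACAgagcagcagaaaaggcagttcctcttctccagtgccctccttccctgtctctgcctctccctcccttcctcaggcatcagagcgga
FOXA1, chr14:37595200-37595499, minus strand: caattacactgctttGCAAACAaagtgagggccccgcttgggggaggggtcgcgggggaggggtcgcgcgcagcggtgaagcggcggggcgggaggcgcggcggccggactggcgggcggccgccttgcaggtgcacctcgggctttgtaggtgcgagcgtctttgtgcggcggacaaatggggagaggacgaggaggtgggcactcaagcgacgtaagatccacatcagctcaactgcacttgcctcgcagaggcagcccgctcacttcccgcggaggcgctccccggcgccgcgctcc
ALB, chr4:73404037-73404336, plus strand: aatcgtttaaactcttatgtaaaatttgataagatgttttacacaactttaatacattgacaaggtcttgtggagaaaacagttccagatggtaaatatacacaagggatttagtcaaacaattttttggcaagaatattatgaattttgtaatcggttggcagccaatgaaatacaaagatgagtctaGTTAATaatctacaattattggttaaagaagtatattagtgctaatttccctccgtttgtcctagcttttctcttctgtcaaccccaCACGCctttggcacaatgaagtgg
AFP, chr4:73435971-73436270, plus strand: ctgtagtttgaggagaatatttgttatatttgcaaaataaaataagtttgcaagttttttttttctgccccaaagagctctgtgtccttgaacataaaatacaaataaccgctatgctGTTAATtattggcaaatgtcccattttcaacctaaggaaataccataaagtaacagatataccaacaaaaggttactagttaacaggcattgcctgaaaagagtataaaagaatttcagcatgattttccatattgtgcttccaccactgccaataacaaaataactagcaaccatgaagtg
The motifs searched on both strands were the HNF1 motif GTTAAT, the forkhead motifs TGTTTGC and TGTTTAC, and the hypoxia response cores ACGTG and GCGTG, none of which contains another. The capitals in VTN and FOXA1 are the forkhead motif TGTTTGC on the opposite strand, beginning at positions -43 and -235 from the start. The capitals in AFP are the HNF1 motif, and those in ALB are the HNF1 motif and, past the start, the core GCGTG on the opposite strand. Of the 36 genes, 26 matched a RefSeq promoter by symbol, and 7 of these had more than 1. GTTAAT stood in a promoter of 8 of the 26 (30.8%) and of 8.27% of 27305 genes, and TGTTTGC in 7 of the 26 (26.9%) and in 4.76% of all. TGTTTAC stood in 1 member (3.85%, APOA2), against 4.19% of all genes. ACGTG stood in 3 members (11.5%, against 24.9% of all) and GCGTG in 4 (15.4%, against 40.6%). Of the members above 2 times the array median, 4 had a promoter to search, and C3 had none. Among those 4, CPS1 alone held ACGTG. A match describes letters and is neither a site nor a cause.

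Array medians of the signal ran between 115 and 150 and single values between 52.6 and 59613, with a within-group correlation of 0.9797 to 0.9967 over 15 pairs of arrays. The shNDRG3 pair at 24 h was furthest apart, with a median difference of 0.185 on the log2 scale. Levels below are log2 signals after quantile normalization, relative to the median of the array, so 0 is the array median and 1 is 2 times that median. The signal of a probe depends on the probe itself, so levels of different genes are not set against each other as amounts of RNA. Changes are log2 differences with limma standard errors after ±, from a fit to all 24 arrays that shares 1 spread per probe, and adjusted p-values are two-sided and taken over 31100 probes above the array median in at least 2 arrays. Where either group of a comparison was dimmer than 1.5 times the array median, the fold is understated by background and is given as a lower bound (at least), a limit chosen after values of these data had been seen. In such bulk RNA, fewer cells of a type and less RNA per cell cannot be told apart. The targeted genes checked the labels: a HIF1A probe averaged 2.07 in the shHIF1A line and 3.54 in the shGFP line, and an NDRG3 probe averaged 1.41 in the shNDRG3 line and 3.59 in the shGFP line.

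Most hepatocyte identity genes had signals near or below the array median in every group. By its brightest probe and its mean over the 11 groups, a gene lay above 2 times the array median in 5 of 34 members (14.7%), against 41.4% of all 20046 genes. These 5 were VTN (probe ILMN_1691127, gene at chr17:28367284-28370307 of GRCh38.p14), C3 (ILMN_1762260, chr19:6677704-6720650), CPS1 (ILMN_1792748, chr2:210477685-210679107), FOXA1 (ILMN_1766650, chr14:37589552-37595249) and CEBPA (ILMN_1715715, chr19:33299934-33302534). The other 29 lay at or below that limit, 22 of them below the array median itself, and 26 stayed under 1.5 times the median in every group. The lowest means above the limit were those of C3 at 1.52 and VTN at 1.54, and the highest below it was that of ALB at 0.87. The VTN mean includes shNDRG3 groups near the array median, the lowest at -0.14 after 12 h. Normoxia in the shGFP line gave the same number, 5, and 6 members passed in at least 1 group, the added one being ALB. With the mean over all probes of a gene, 4 members passed.

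**Figure D1:**
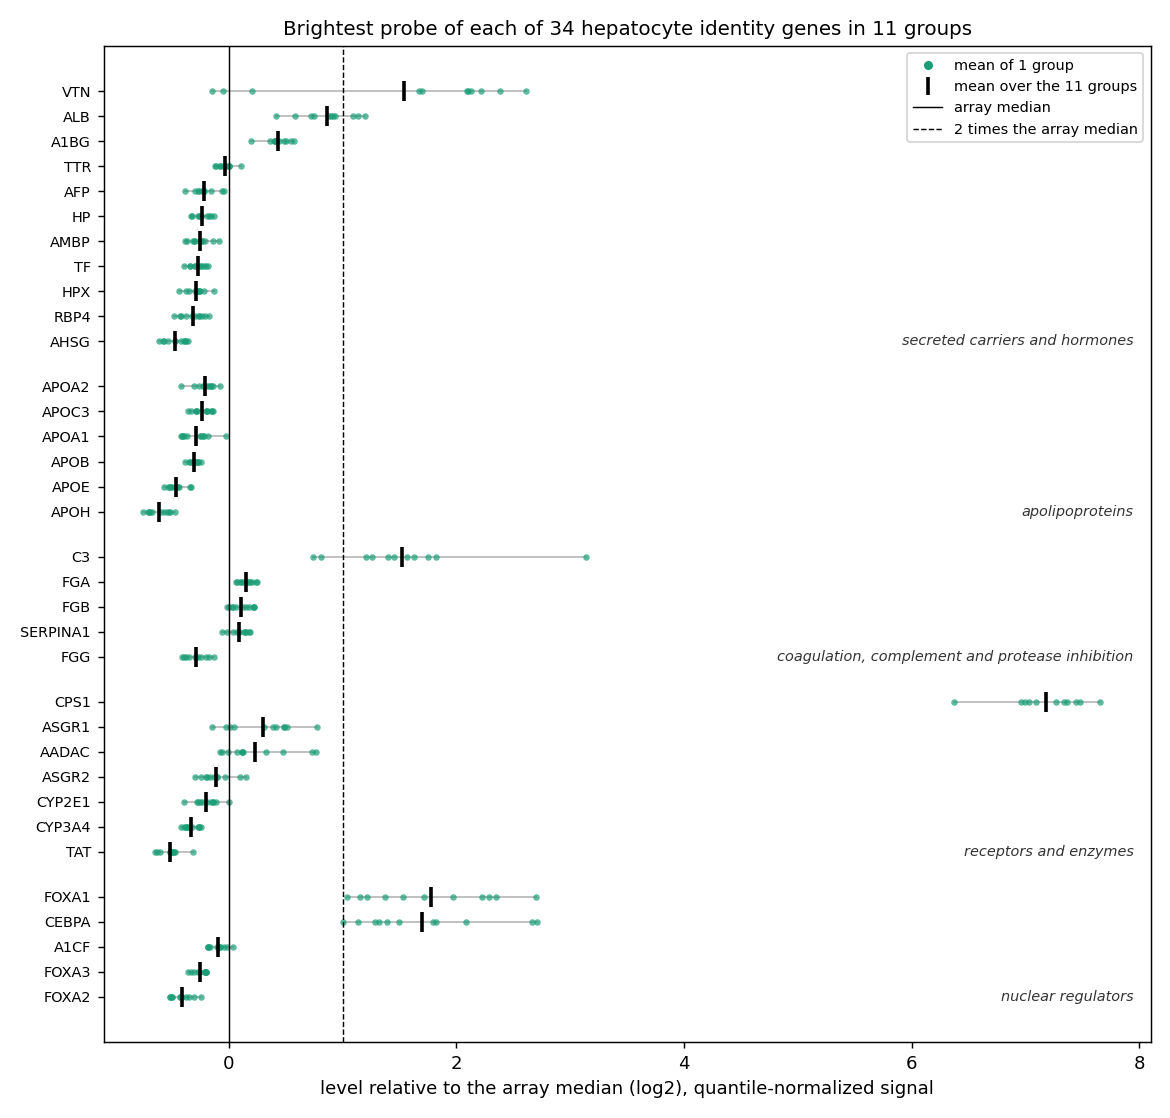
Level of the brightest probe of each of 34 members, as log2 signal relative to the array median on the horizontal axis, with members listed by role down the page. Green points are the means of the 11 groups, black bars their mean, and the dashed line marks 2 times the array median: CPS1 lies near 7, 4 other members near 1.5 to 1.8 on average, and the remaining members between -0.61 and 0.87.

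Among secreted plasma proteins, 1 of 11 members (VTN) exceeded 2 times the median. Alpha-fetoprotein (AFP) lay at -0.22 over the groups, between -0.39 and -0.04 in single groups. Transthyretin (TTR), which carries thyroid hormone, lay at -0.03, the iron carrier transferrin (TF) at -0.27, haptoglobin (HP) at -0.24 and the heme carrier hemopexin (HPX) at -0.28. No probe of these 5 genes was above 1.5 times the median in any group. Fetuin-A (AHSG) lay at -0.47, the retinol carrier RBP4 at -0.32 and AMBP, the precursor of alpha-1-microglobulin, at -0.26. Albumin (ALB), the main plasma protein, lay at 0.87 by its brighter probe and at -0.20 by the other, and A1BG at 0.43 and -0.26 by its 2 probes.

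None of the 6 apolipoproteins exceeded the limit, and all of their probes lay below the array median on average. APOA2 lay at -0.21, APOC3 at -0.23, APOA1 at -0.28, APOB at -0.30, APOE at -0.47 and APOH at -0.61. The widest range over the groups was that of APOA1, whose groups ran from -0.42 in shGFP normoxia to -0.02 in shNDRG3 cells at 24 h. No apolipoprotein passed the test in any of the 7 main comparisons, and 1 of the 6 (APOC3) had a probe bright enough to enter it.

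Of the coagulation, complement and protease inhibitor genes, 1 of 5 (C3) exceeded the limit. The fibrinogen chains lay at 0.15 (FGA), 0.11 (FGB) and -0.29 (FGG) by their brightest probes, and the protease inhibitor SERPINA1 at 0.09. FGA had 5 probes between -0.72 and 0.15 and SERPINA1 had 4 between -0.47 and 0.09. C3 itself had a second probe at -0.24, and the results for C3 come from 1 of its 2 probes.

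Receptors and enzymes held 1 bright member among 7. The asialoglycoprotein receptor subunits lay at 0.30 (ASGR1) and -0.11 (ASGR2), the esterase AADAC at 0.23, the cytochromes at -0.20 (CYP2E1) and -0.33 (CYP3A4), and tyrosine aminotransferase (TAT) at -0.52. CPS1, which makes carbamoyl phosphate for the urea cycle, lay at 7.18, above 99.0% of all probes. Among the 5 nuclear regulators with a probe, FOXA1 and CEBPA exceeded the limit, whereas FOXA2 lay at -0.41, FOXA3 at -0.25 and A1CF, an RNA-binding cofactor of apolipoprotein B editing, at -0.10.

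The label of a hepatoma line was set against lists of other liver genes and of other cell types. Of 119 measured liver genes outside the 36, 19 (16%) exceeded 2 times the median, against 41.4% of all genes. The counts of each list below are to be read against that share. By list these were 5 of 15 liver transcription factors, 2 of 28 coagulation proteins and inhibitors, 4 of 25 complement and acute phase genes, 2 of 13 lipoprotein genes, 3 of 16 amino acid, urea and glucose genes and 3 of 22 bile acid, transport and drug metabolism genes. Examples were CEBPB at 7.22, C4BPB at 6.95, the urea cycle enzyme ASS1 at 6.20 and complement factor B (CFB) at 5.88. Markers of fetal liver and hepatoma exceeded the limit in 6 of 13 genes, of bile duct epithelium in 3 of 9, of simple epithelium in 4 of 7, of squamous epithelium in 2 of 7 and of mesenchyme in 4 of 15. In those lists TSPAN8 lay at 6.58, MUC1 at 6.78, KRT8 at 6.00, KRT16 at 5.41 and VIM at 6.91, whereas GPC3 and CDH1 both lay at -0.44 and KRT5 at -0.54. Endothelial markers passed in 1 of 10 genes and blood cell markers in 1 of 12, and all 14 common reference genes passed. In times of the array median, the mean signal over a list ran between 3.83 and 7.06 across the 11 groups for the hepatocyte identity genes. Liver transcription factors ran from 9.40 to 22.1, complement and acute phase genes from 5.88 to 13.6 and amino acid, urea and glucose genes from 5.00 to 9.55. Lipoprotein genes ran from 2.29 to 3.74, bile acid, transport and drug genes from 1.73 to 3.20 and coagulation genes from 1.09 to 1.24. Fetal liver and hepatoma markers ran from 10.6 to 13.6, simple epithelium from 11.8 to 17.1, bile duct from 11.5 to 32.3 and squamous markers from 5.13 to 12.4. Mesenchymal markers ran from 8.27 to 11.3, blood from 1.96 to 8.36 and endothelium from 1.22 to 1.57. Each mean is carried by a few bright probes, for the hepatocyte identity genes by CPS1 at 145 times the median, and the lists are not set against each other. The defining secreted markers AFP, APOA1, TTR and TF were near the array median, and ALB under 2 times it on average though not in every group, in cells labelled with a hepatoma line, and the cause was not tested. Nor was the part of the other marker lists in the changes described next.

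**Figure D2:**
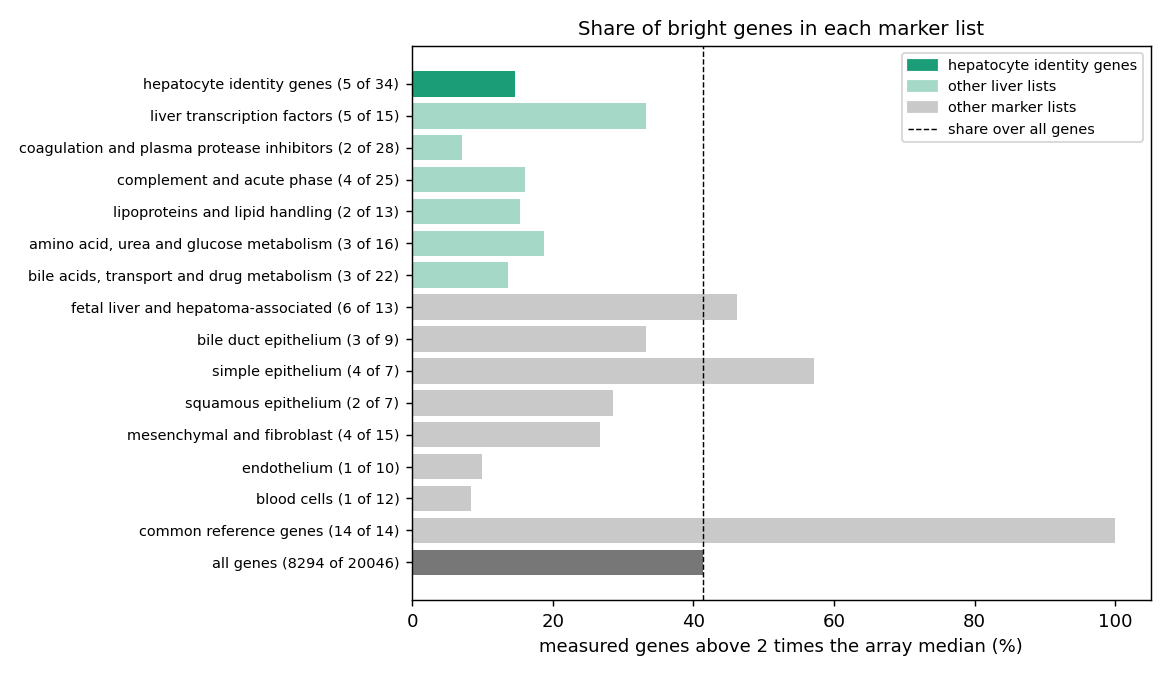
Share of measured genes above 2 times the array median, in percent, for the hepatocyte identity genes, 6 further liver lists, 8 other marker lists and all genes. The bar of the hepatocyte identity genes ends at 14.7%, left of the dashed line at 41.4% for all genes, and all 14 common reference genes passed.

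Time at 1% oxygen in the shGFP line was followed for the 5 bright members. No member passed the test at 3 h or 6 h, 1 fell at 12 h (FOXA1), and at 24 h C3 and VTN rose while CPS1 and FOXA1 fell. Of all tested probes, 0.977% passed at 3 h, 2.85% at 6 h, 17.7% at 12 h and 33.6% at 24 h, and among the 12654 tested probes above 2 times the median 2.11%, 6.27%, 33.9% and 58.8%. The 4 of 5 members called at 24 h are to be read against that last share. On the signals as deposited also 4 passed, but 1 rose (C3) and 3 fell (CPS1, FOXA1 and CEBPA). At 3 h and 6 h the limma count was 0, FOXA1 and CEBPA had an unadjusted p under 0.05 at both times, and these 2 passed at 6 h without either shNDRG3 24 h array. Each time was compared with the same 2 normoxia arrays, so the 4 comparisons are not independent. The median change of the 5 members at 24 h was -0.13 (log2), against -0.0043 over all tested probes. That median is the value of CEBPA, which did not pass, with 2 called members higher and 2 lower, and is not read as a shift of the list.

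C3, the central complement component, rose at 24 h of hypoxia. Its level was 1.46, 1.54 and 1.36 on the shGFP arrays after 3 h, 2.0 and 1.51 after 6 h, 1.89 and 1.75 after 12 h, and 3.12 and 3.15 after 24 h, against 1.58 and 1.54 in normoxia. The 24 h arrays stood above all other shGFP arrays, while the earlier times lay close to normoxia. The change at 24 h was 1.57 ± 0.19 (limma adjusted p = 5.4e-07), a 2.98-fold rise, and 0.94 on the signals as deposited. Its second probe, below the median on all but 1 array, was not tested.

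VTN encodes vitronectin, an adhesion protein of plasma and matrix. Its shGFP levels were 2.19, 2.09 and 2.02 after 3 h, 2.03 and 2.23 after 6 h, 2.32 and 2.45 after 12 h, and 2.54 and 2.68 after 24 h, against 2.31 and 2.12 in normoxia. The 24 h arrays were the highest, by a small margin. The change at 24 h was 0.39 ± 0.13 (limma adjusted p = 0.019, 1.31-fold). That call was lost with median-centred arrays (0.10, limma adjusted p = 0.695) and without shGFP normoxia replicate 2 (0.30) or shGFP 24 h replicate 2 (0.32). On the signals as deposited, the sign turned to -0.24, where the median of all probes at 24 h was -0.39.

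CPS1 was flat to 12 h and lower at 24 h. Its levels were 7.06, 6.94 and 6.98 after 3 h, 7.01 and 6.92 after 6 h, 7.11 and 7.07 after 12 h, and 6.41 and 6.34 after 24 h, against 6.96 and 7.10 in normoxia. Only the 24 h arrays of shGFP cells left the narrow band of the other times. The change at 24 h was -0.66 ± 0.12 (limma adjusted p = 9.97e-05), a 1.58-fold fall, and -1.15 on the signals as deposited.

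FOXA1, a forkhead pioneer factor, stood lower at each time of hypoxia than in normoxia. Its shGFP levels were 2.49, 2.35 and 2.20 after 3 h, 2.24 and 2.33 after 6 h, 2.28 and 2.17 after 12 h, and 2.09 and 1.85 after 24 h, against 2.72 and 2.68 in normoxia. No hypoxia array reached the normoxia arrays. The changes were -0.36 ± 0.14 at 3 h (limma adjusted p = 0.325) and -0.42 ± 0.16 at 6 h (limma adjusted p = 0.208), which did not pass. FOXA1 fell by 0.48 ± 0.16 at 12 h (limma adjusted p = 0.036) and by 0.73 ± 0.16 at 24 h (limma adjusted p = 0.000608, 1.66-fold). On the signals as deposited these were -0.79 and -1.33. The 12 h call was lost with median-centred arrays and without any 1 of the shGFP normoxia or 12 h arrays, with values between -0.53 and -0.42 in these left-out fits.

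CEBPA, a bZIP factor of mature hepatocytes, passed at no time. Its shGFP levels were 1.33, 1.41 and 1.44 after 3 h, 1.41 and 1.59 after 6 h, 1.26 and 1.31 after 12 h, and 1.02 and 0.98 after 24 h, against 1.06 and 1.21 in normoxia. The 3 h to 12 h arrays lay above normoxia and the 24 h arrays below it. The differences were 0.37 ± 0.13 at 6 h (limma adjusted p = 0.159, 95% interval 0.10 to 0.63) and -0.13 ± 0.13 at 24 h (limma adjusted p = 0.504, 95% interval -0.40 to 0.13). On the signals as deposited the 24 h difference was -0.59 (limma adjusted p = 0.00231).

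**Figure D3:**
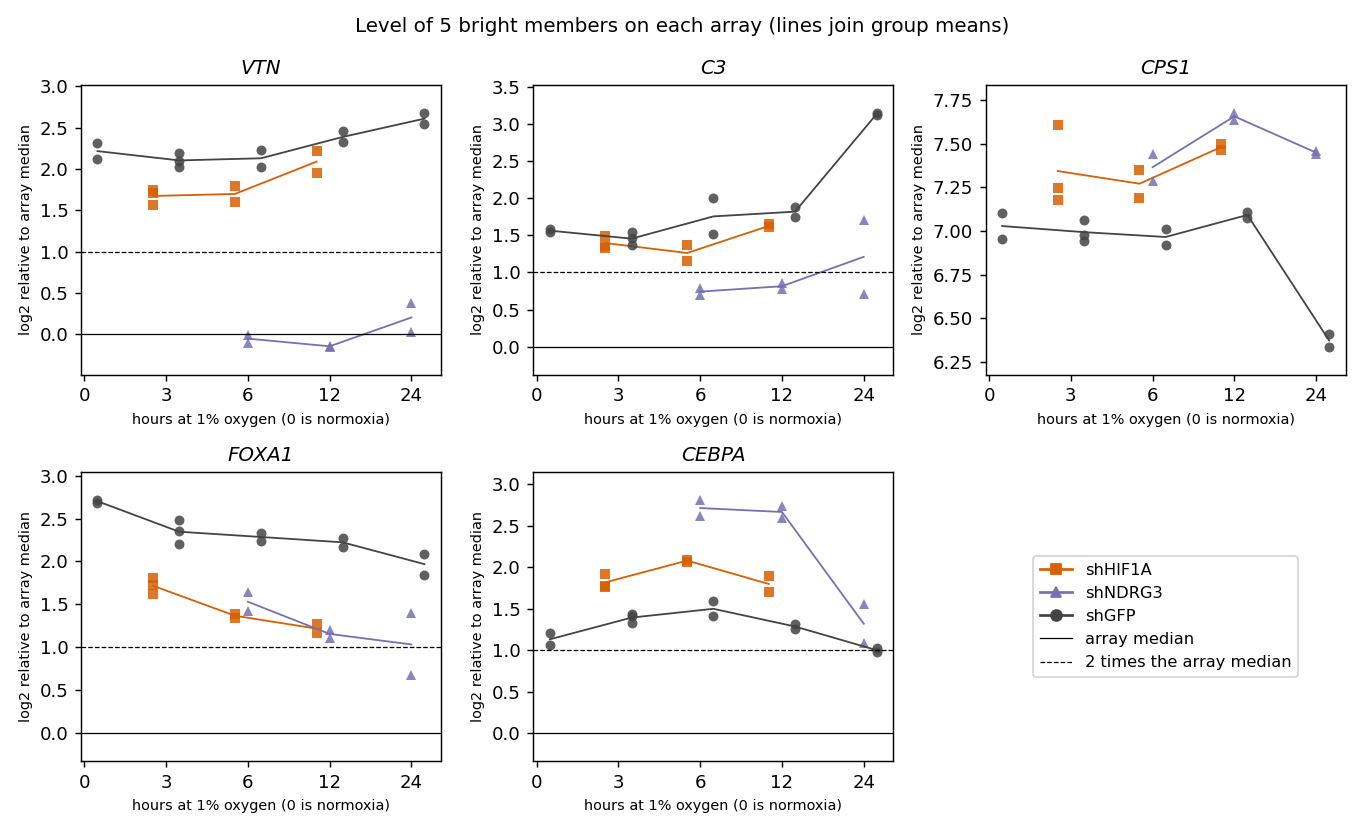
Level of VTN, C3, CPS1, FOXA1 and CEBPA on each of the 24 arrays, as log2 signal relative to the array median, against hours at 1% oxygen on evenly spaced positions with 0 for normoxia. Squares are shHIF1A, triangles shNDRG3 and circles shGFP arrays, lines join group means, and the CPS1 panel starts above the median lines. VTN of the shNDRG3 line stays between -0.15 and 0.38 while no shGFP array is under 2.02.

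Differences of shHIF1A cells from shGFP cells at equal hours of hypoxia were averaged over 3 h, 6 h and 12 h. CPS1 and CEBPA were higher and VTN and FOXA1 lower in shHIF1A cells, and C3 did not pass. These 4 of 5 members compare with 28.8% of all tested probes and 52.9% of those above 2 times the median. The median change of the 5 members was -0.25, against 0.01 over all tested probes. That median is the value of C3, with 2 called members higher and 2 lower, and is not read as a shift of the list.

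FOXA1 changed most among the 5 in shHIF1A cells. Its levels were 1.73, 1.80 and 1.62 in shHIF1A cells after 3 h, 1.39 and 1.35 after 6 h and 1.16 and 1.28 after 12 h, against shGFP arrays from 2.17 to 2.49 at the same times. All shHIF1A arrays lay below all of these shGFP arrays. FOXA1 fell by 0.85 ± 0.09 on average (limma adjusted p = 3.25e-08, 1.80-fold). The difference was -0.63 after 3 h, -0.92 after 6 h and -1.0 after 12 h, and the change between 3 h and 12 h was -0.38 ± 0.20 (limma adjusted p = 0.588). Within the shHIF1A line FOXA1 fell by 0.50 ± 0.14 between 3 h and 12 h (limma adjusted p = 0.0199), a call lost with median-centred arrays and without shHIF1A 3 h replicate 2 (-0.46), 12 h replicate 1 (-0.44) or 12 h replicate 2 (-0.56).

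CEBPA moved the other way. Its levels were 1.76, 1.92 and 1.78 in shHIF1A cells after 3 h, 2.09 and 2.07 after 6 h and 1.89 and 1.70 after 12 h, against shGFP arrays from 1.26 to 1.59. The groups did not overlap. CEBPA rose by 0.51 ± 0.07 (limma adjusted p = 3.76e-06, 1.42-fold), and passed at each of the 3 times, by 0.42, 0.58 and 0.51. The 6 h call was lost without shGFP 6 h replicate 1 (0.49), and the 12 h call without shGFP 12 h replicate 1 (0.49) or shHIF1A 12 h replicate 1 (0.41).

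VTN had levels of 1.71, 1.74 and 1.57 in shHIF1A cells after 3 h, 1.79 and 1.60 after 6 h and 2.22 and 1.95 after 12 h, against shGFP arrays from 2.02 to 2.45. At each time the shHIF1A arrays were the lower ones, and the 12 h arrays came closest to shGFP. VTN fell by 0.39 ± 0.07 (limma adjusted p = 0.000115, 1.31-fold), with -0.30 ± 0.13 at 12 h (limma adjusted p = 0.131). Within the shHIF1A line it was 0.42 ± 0.12 higher at 12 h than at 3 h (limma adjusted p = 0.0174), which was lost with median-centred arrays (0.40), on the signals as deposited (0.19), with only the arrays compared, and without shHIF1A 3 h replicate 3 (0.36) or 12 h replicate 1 (0.28).

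CPS1 reached 7.17, 7.61 and 7.25 in shHIF1A cells after 3 h, 7.35 and 7.19 after 6 h and 7.46 and 7.50 after 12 h, against shGFP arrays from 6.92 to 7.11. The lowest shHIF1A array exceeded the highest shGFP array. CPS1 rose by 0.35 ± 0.07 (limma adjusted p = 0.000169, 1.27-fold). At 6 h alone the CPS1 difference did not pass, and it passed in 2 of 9 other settings (0.31 to 0.33). The 3 h call was lost with only the arrays compared and without shGFP 3 h replicate 2 (0.32) or shHIF1A 3 h replicate 2 (0.22). The 12 h call was lost without any 1 of the shGFP or shHIF1A 12 h arrays (0.37 to 0.41). C3 had 1.34, 1.36 and 1.49 in shHIF1A cells after 3 h, 1.16 and 1.36 after 6 h and 1.61 and 1.65 after 12 h, against 1.36 to 2.0 on shGFP arrays, which overlap. Its difference was -0.25 ± 0.11 (limma adjusted p = 0.0868, 95% interval -0.47 to -0.03). It passed with array weights (limma adjusted p = 0.00768), with only the arrays compared (limma adjusted p = 0.0099), without shGFP 6 h replicate 2 (-0.33) and without either shNDRG3 24 h array.

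The shNDRG3 line was compared with the same shGFP arrays at 6 h and 12 h and with those at 24 h. All 5 bright members passed: VTN, C3 and FOXA1 were lower and CPS1 and CEBPA higher in shNDRG3 cells. Of all tested probes 33.4% passed, and of those above 2 times the median 59.8%. The median change of the 5 members was -0.92, against 0.02 over all tested probes. That median is the value of FOXA1, with 2 members higher and 3 lower, and is not read as a shift of the list. Because the shHIF1A and shNDRG3 effects share shGFP arrays, their likeness is not read as a result.

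VTN showed the widest difference, to the level of the array median. It stood at -0.0017 and -0.10 in shNDRG3 cells after 6 h, -0.14 and -0.15 after 12 h, and 0.38 and 0.03 after 24 h, against shGFP arrays of 2.03 and 2.23, 2.32 and 2.45, and 2.54 and 2.68 at these times. In deposited signal this was 132 and 129 after 6 h, 112 and 112 after 12 h and 150 and 121 after 24 h in shNDRG3 cells, against 535 to 673 on all shGFP hypoxia arrays. No shNDRG3 array came near an shGFP array. VTN fell by 2.37 ± 0.07 (limma adjusted p = 1.09e-17) and was at least 5.18-fold lower. The difference was -2.18 after 6 h, -2.53 after 12 h and -2.40 after 24 h, with no change between 6 h and 24 h that passed (-0.22 ± 0.18, limma adjusted p = 0.598).

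C3 stood at 0.69 and 0.79 in shNDRG3 cells after 6 h, 0.85 and 0.78 after 12 h, and 1.71 and 0.71 after 24 h, against 2.0 and 1.51, 1.89 and 1.75, and 3.12 and 3.15 on shGFP arrays at the same times. The groups did not overlap at any time, and the 24 h shNDRG3 arrays differed from each other about as much as the group means did at 6 h. C3 fell by 1.31 ± 0.11 (limma adjusted p = 1.29e-09, 2.49-fold), with -1.01 at 6 h, -1.0 at 12 h and -1.93 at 24 h. Within the shNDRG3 line the 24 h arrays were 0.47 ± 0.19 above those at 6 h (limma adjusted p = 0.0757), which passed without shNDRG3 24 h replicate 2 (0.97).

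FOXA1 stood at 1.42 and 1.64 in shNDRG3 cells after 6 h, 1.11 and 1.20 after 12 h and 0.67 and 1.40 after 24 h, against 2.24 and 2.33, 2.28 and 2.17, and 2.09 and 1.85 on shGFP arrays at the same times. Every shNDRG3 array was below every shGFP array. FOXA1 fell by 0.92 ± 0.09 (limma adjusted p = 1.5e-08, 1.89-fold). Within the line it fell by 0.50 ± 0.16 between 6 h and 24 h (limma adjusted p = 0.0177). That call was lost with array weights, with only the arrays compared, without shNDRG3 6 h replicate 2 (-0.39) and without shNDRG3 24 h replicate 1 (-0.14).

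CPS1 reached 7.29 and 7.44 in shNDRG3 cells after 6 h, 7.68 and 7.64 after 12 h and 7.46 and 7.44 after 24 h, against 7.01 and 6.92, 7.11 and 7.07, and 6.41 and 6.34 on shGFP arrays at the same times. The shNDRG3 arrays were higher at each time, with the widest gap at 24 h. CPS1 rose by 0.68 ± 0.07 (limma adjusted p = 2.26e-08, 1.60-fold), by 0.40 at 6 h, 0.56 at 12 h and 1.08 at 24 h. The 6 h call was lost without either shGFP 6 h array (0.45 and 0.35) or without shNDRG3 6 h replicate 2 (0.32). Within the shNDRG3 line 24 h and 6 h differed by 0.08 ± 0.12 (limma adjusted p = 0.692, 95% interval -0.16 to 0.33).

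CEBPA reached 2.61 and 2.81 in shNDRG3 cells at 6 h and 2.74 and 2.59 at 12 h, but 1.09 and 1.55 at 24 h, against 1.41 and 1.59, 1.26 and 1.31, and 1.02 and 0.98 on shGFP arrays at the same times. The groups stood apart at each time, least at 24 h. CEBPA rose by 0.97 ± 0.07 (limma adjusted p = 1.91e-10, 1.96-fold), by 1.21 at 6 h and 1.38 at 12 h, and differed by 0.32 ± 0.13 at 24 h (limma adjusted p = 0.0772). The 24 h difference passed without shNDRG3 24 h replicate 1 (0.55). Within the shNDRG3 line it fell by 1.39 ± 0.13 between 6 h and 24 h (limma adjusted p = 1.04e-08, 2.62-fold). The shNDRG3 effect itself differed between 24 h and 6 h for 3 of 5 bright members (CEBPA, CPS1 and C3). These compare with 6.71% of all tested probes and 12.8% of those above 2 times the median. Of 18 tested probes of the dimmer members 1 passed (FGG), against 2.56% of all tested probes at or below 2 times the median.

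**Figure D4:**
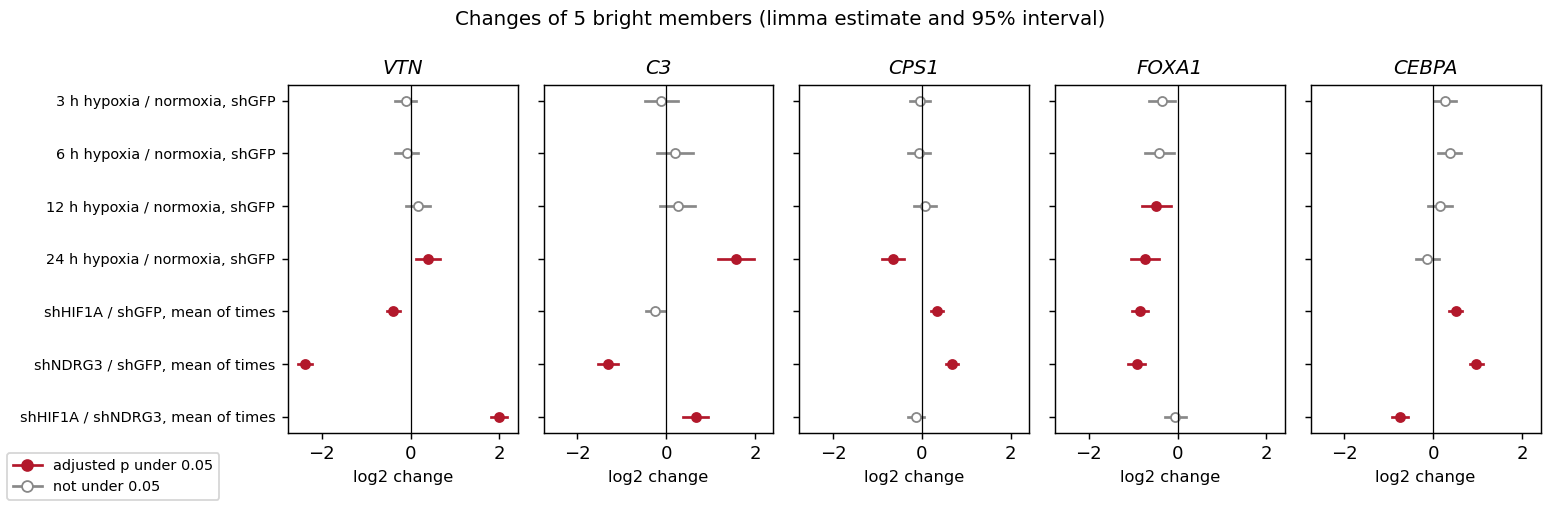
Estimated log2 changes of the 5 bright members in the 7 comparisons, first named group over second, with 95% intervals from limma. Filled red points passed an adjusted p of 0.05 and open grey points did not. VTN reaches -2.37 in the shNDRG3 line, and C3 is the only one of the 5 whose shHIF1A value is open.

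The knockdown lines were compared with each other at 6 h and 12 h. VTN and C3 were higher and CEBPA lower in shHIF1A than in shNDRG3 cells, 3 of 5 members, against 10.2% of all tested probes and 20.1% of those above 2 times the median. VTN differed by 1.99 ± 0.09 (limma adjusted p = 1.79e-13, at least 3.98-fold), C3 by 0.67 ± 0.14 (limma adjusted p = 0.00173, 1.59-fold) and CEBPA by -0.75 ± 0.09 (limma adjusted p = 2.38e-06, 1.68-fold). With 6 h and 12 h pooled, the shHIF1A and shNDRG3 arrays of VTN, C3 and CEBPA did not overlap. The share of all tested probes that do so was not computed, so this separation is not read as a result. FOXA1 differed by -0.05 ± 0.11 (limma adjusted p = 0.878, 95% interval -0.28 to 0.18) and CPS1 by -0.13 ± 0.08 (limma adjusted p = 0.417, 95% interval -0.31 to 0.04). Pooled in the same way, the arrays of both overlapped, although CPS1 arrays lay apart at 12 h and FOXA1 arrays at 6 h.

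Of the members at or below 2 times the median, 18 probes could be tested, and 4 of them passed in at least 1 of the 7 comparisons. They belonged to ALB, FGG, ASGR1 and AADAC. None passed at 3 h or 6 h, 1 at 12 h, 3 at 24 h, 3 in the shHIF1A line, 2 in the shNDRG3 line and 1 between the knockdown lines. The FGG probe is 1 of the 3 in the shHIF1A line and is the 1 between the knockdown lines. It entered the test only through shHIF1A arrays, where it was high, so these 2 calls are not independent of the filter. Among all 18446 tested probes at or below 2 times the median, 0.201% passed at 3 h, 0.499% at 6 h, 6.52% at 12 h, 16.3% at 24 h, 12.3% in the shHIF1A line, 15.2% in the shNDRG3 line and 3.39% between the knockdown lines, so the members' counts are near these shares. A probe this close to the background understates any change.

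Albumin, by its brighter probe, stood at 0.48 and 0.34 on shGFP arrays at 24 h, against 0.73 and 1.11 in normoxia. Both 24 h arrays were below both normoxia arrays. ALB fell by 0.51 ± 0.13 (limma adjusted p = 0.00364, at least 1.42-fold), which was lost without shGFP normoxia replicate 2 (-0.32) or shGFP 24 h replicate 2 (-0.44), and was -0.91 on the signals as deposited. Within the shNDRG3 line it stood at 0.55 and 0.61 at 24 h, against 1.06 and 1.22 at 6 h, a fall by 0.56 ± 0.13 (limma adjusted p = 0.00183). In the shHIF1A line it was 0.67 and 0.78 at 12 h, against 1.16, 1.38 and 1.04 at 3 h, a fall by 0.47 ± 0.12 (limma adjusted p = 0.00941) that was lost without shHIF1A 3 h replicate 2 (-0.37) or 12 h replicate 1 (-0.41). The second ALB probe lay below the median on all 24 arrays. No ALB difference between a knockdown line and shGFP passed.

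AADAC, an esterase of the endoplasmic reticulum, stood at 0.85, 0.67 and 0.67 on shGFP arrays after 3 h, 0.52 and 0.44 after 6 h, 0.20 and 0.45 after 12 h and -0.05 and 0.28 after 24 h, against 0.79 and 0.74 in normoxia. It fell by 0.44 ± 0.11 at 12 h (limma adjusted p = 0.00782) and by 0.65 ± 0.11 at 24 h (limma adjusted p = 6.02e-05), with -0.71 and -1.03 on the signals as deposited. The 12 h call was lost without shGFP normoxia replicate 1 (-0.41) or shGFP 12 h replicate 1 (-0.31). All shHIF1A arrays lay between 0.04 and 0.18 and all shNDRG3 arrays between -0.10 and 0.03, near the array median. AADAC fell by 0.41 ± 0.06 in the shHIF1A line (limma adjusted p = 1.38e-05) and fell by 0.36 ± 0.07 in the shNDRG3 line (limma adjusted p = 0.000109), averaged over the times. At the last time alone neither difference passed, nor in any of 8 other settings. There it ran from -0.30 to -0.26 for shHIF1A at 12 h and from -0.24 to -0.18 for shNDRG3 at 24 h.

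ASGR1, the major subunit of the asialoglycoprotein receptor, lay between -0.13 and 0.32 on the shHIF1A arrays, between -0.20 and 0.58 on the shNDRG3 arrays and between 0.34 and 0.83 on the shGFP arrays. It fell by 0.35 ± 0.06 in the shHIF1A line (limma adjusted p = 9.34e-05) and fell by 0.46 ± 0.07 in the shNDRG3 line (limma adjusted p = 3.96e-06), compared at matched times. At 24 h alone the shNDRG3 difference passed in 5 of 8 other settings (-0.41 to -0.31). That call was lost without shGFP 24 h replicate 2 (-0.30) or shNDRG3 24 h replicate 2 (-0.195). At 12 h alone ASGR1 did not pass in the shHIF1A line, nor in any of 8 other settings (-0.23 to -0.20). Within the shNDRG3 line it was 0.56 ± 0.11 higher at 24 h than at 6 h (limma adjusted p = 0.000459), which was lost with only the arrays compared (limma adjusted p = 0.0798) and was 0.34 on the signals as deposited.

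FGG, the fibrinogen gamma chain, was higher in the shHIF1A line by 1 of its 3 probes. That probe stood at 0.35, 0.42 and 0.38 in shHIF1A cells after 3 h, 0.09 and -0.07 after 6 h and -0.01 and 0.23 after 12 h, against shGFP arrays from -0.80 to -0.48. All shHIF1A arrays lay above all shGFP and all shNDRG3 arrays. The probe lay above the array median on 5 arrays, all of them shHIF1A, so it entered the test only through the group in which it was high. In the fit without a filter on dim probes it passed too (limma adjusted p = 1.19e-10 against shGFP). The difference was 0.75 ± 0.06 (limma adjusted p = 3.98e-10, at least 1.68-fold) from shGFP and 0.69 ± 0.08 (limma adjusted p = 5.11e-07, at least 1.61-fold) from shNDRG3. The other 2 FGG probes lay between -0.67 and -0.10 on all arrays and were too dim to be tested, so the change rests on a single probe. At 24 h in shGFP cells the same probe fell by 0.29 ± 0.11 (limma adjusted p = 0.038), which was lost without any 1 of the 4 arrays compared, where it ran from -0.31 to -0.27, and in 3 of 8 other settings, with -0.63 on the signals as deposited.

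**Figure D5:**
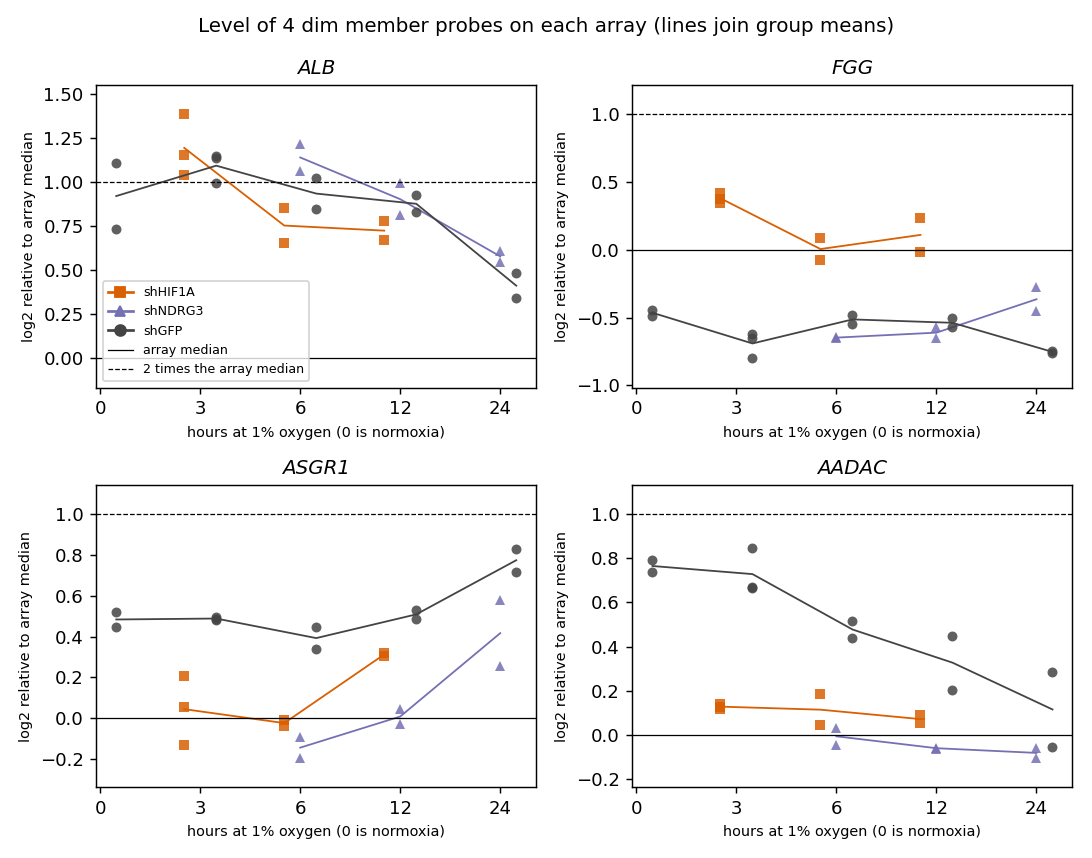
Level of 1 probe each of ALB, FGG, ASGR1 and AADAC on each of the 24 arrays, as log2 signal relative to the array median, against hours at 1% oxygen on evenly spaced positions with 0 for normoxia. Squares are shHIF1A, triangles shNDRG3 and circles shGFP arrays, and lines join group means. All FGG points of the shHIF1A line lie above those of the other lines, and AADAC of both knockdown lines lies at or under 0.18.

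The 19 bright liver genes outside the list gave the surroundings of these changes. In shGFP cells 0 rose and 0 fell at 3 h, 2 rose and 1 fell at 6 h, 6 rose and 3 fell at 12 h, and 8 rose and 5 fell at 24 h. On the signals as deposited, 3 of those that rose at 24 h had the opposite sign (C1S, ASL and PCK2). In the shHIF1A line 5 were higher and 8 lower, in the shNDRG3 line 6 were higher and 10 lower, and between the knockdown lines 9 were higher and 2 lower in shHIF1A cells. The shares of all tested probes above 2 times the median were 2.11%, 6.27%, 33.9% and 58.8% at the 4 times, 52.9% and 59.8% in the shHIF1A and shNDRG3 lines and 20.1% between them. Complement factor B (CFB), the alternative pathway partner of C3, fell by 2.97 ± 0.08 in the shNDRG3 line and fell by 1.28 ± 0.07 in the shHIF1A line, and was 1.12 ± 0.13 higher at 24 h of hypoxia in shGFP cells. CEBPB, a relative of CEBPA, fell by 0.91 ± 0.07 in the shNDRG3 line and fell by 0.45 ± 0.07 in the shHIF1A line, and was 1.00 ± 0.13 higher at 24 h. ASS1, the urea cycle enzyme that acts after CPS1 and OTC, was higher by 0.31 ± 0.09 in the shNDRG3 line and by 0.64 ± 0.08 in the shHIF1A line, with 0.21 ± 0.15 at 24 h, which did not pass. All calls named for these 3 genes passed a limma adjusted p of 0.05.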

How the data were processed

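Total RNA of 24 samples, amplified and biotin-labelled per the labels' protocols, was read on Illumina bead arrays. The authors deposited 1 linear intensity for each of 47231 probes and array. The scanner's software and any correction or scaling by the authors are not stated in the labels. Judged from the values, the deposited intensities were neither scaled between arrays nor background subtracted, since their medians differ and no value lies under 52.6. Here they were quantile normalized and put on the log2 scale, probes above the array median in at least 2 of 24 arrays were kept (31100), and differences between group means were tested with limma 3.58.1 in R 4.3.3 (statmod 1.5.0), with 1 mean for each of 11 groups and Benjamini-Hochberg adjustment over kept probes at a threshold of 0.05. The number of arrays limits the precision, with 13 residual degrees of freedom. Simulated data for the 24 h comparison (31100 probes) held 67 probes changed 1.5-fold, 67 changed 2-fold and 66 changed 4-fold. The fit recovered 62.7%, 98.5% and 100% of these, with 11 false calls. In the real 24 h comparison 33.6% of tested probes passed, a far larger share than was changed there, so these rates need not carry over.

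Genes were named through GEO's platform annotation: 30113 probes had 1 symbol, 8 had several and 17110 were not listed there. The members and the gene lists were chosen with earlier results of these data known. Described in full are members above 2 times the array median, members called in any of the 7 comparisons, and for other lists their counts with examples from the 4 brightest members of a list. GPC3, CDH1, KRT5, C1S, ASL and PCK2 were named after their values were seen. Replicate numbers were not used as pairs in the main fit. The deviations of same-numbered arrays correlated between -0.098 and 0.27, above 0.1 in 7 of 111 pairs. Most groups hold 2 arrays whose deviations mirror each other, so these pairs are not independent and the check of pairing is weak. Alternatives were normexp background correction, median centring, no normalization, other filters on dim probes, 1 probe per gene, array weights, a replicate block, only the arrays compared and leaving out each array.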

Additional observations from a re-analysis of the deposited data

Results flagged for a closer look

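The 4 members CEBPA, CPS1, C3 and FGG had an shNDRG3 effect that differed between 24 h and 6 h of hypoxia by a limma test of that difference itself, which 6.71% of all tested probes passed. They were 3 of 5 bright members, against 12.8% of all bright probes, and 1 of 18 dim member probes (FGG), against 2.56% of all dim probes. The effect on CEBPA changed by -0.8937 (log2, limma adjusted p = 0.00284), being 0.32 at 24 h and 1.21 at 6 h, and the call was lost with only the arrays compared (limma adjusted p = 0.0933). The effect on CPS1 changed by 0.6765 (limma adjusted p = 0.0146), being 1.08 at 24 h and 0.40 at 6 h, and the call was lost with only the arrays compared and without shGFP 6 h replicate 1 (0.63), shNDRG3 6 h replicate 1 (0.60) or shGFP 24 h replicate 2 (0.64).

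The effect on C3 changed by -0.9133 (limma adjusted p = 0.0461), being -1.93 at 24 h and -1.01 at 6 h. That call was lost with normexp background correction, median-centred arrays (-0.70), signals as deposited (-0.72) and only the arrays compared, and it held in 3 of 24 fits that each left out 1 array. Without shGFP 6 h replicate 2 the value was -0.67, and without shNDRG3 24 h replicate 2 it was -0.41. The shNDRG3 24 h arrays were the pair furthest apart in the series. The FGG probe is dim and entered the test only through shHIF1A arrays, which are not part of this comparison. By that 1 probe the FGG effect changed by 0.5224 (limma adjusted p = 0.0358), being 0.39 at 24 h and -0.13 at 6 h, with all shNDRG3 and shGFP arrays below the array median. It passed in 4 of 8 other settings and in 17 of 24 fits without 1 array, where it ran from 0.43 to 0.61.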

How the results depend on the processing

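The count of bright members passing the test kept within 1.5 times its value in all 7 comparisons under all alternatives and left-out arrays, except at 6 h and 12 h. At 6 h it ranged from 0 to 2 over the left-out arrays, with 2 without either shNDRG3 24 h array, and at 12 h from 0 to 1, with 0 also for median-centred arrays. With a replicate block the counts were 0, 0, 1 and 4 at 3, 6, 12 and 24 h, 4 for shHIF1A, 5 for shNDRG3 and 3 between the knockdown lines, as without it. A limit of 4 times the array median left 1 member. On the signals as deposited, where the median of all probes shifted by -0.085, -0.17, -0.26 and -0.39 over the 4 times, the 24 h change turned its sign to -0.2426 for VTN, -0.07166 for C1S, -0.3944 for C4BPA, -0.05689 for ASL, -0.5493 for RXRA, -0.5893 for TBX3, -0.0133 for KRT19 and -0.3496 for PCK2, and with median-centred arrays PCK2 stood at -0.01007. Over all probes the 24 h count was 19931 as deposited, against 10450, and the 12 h count 10647, against 5495. At 6 h it was 1498 as deposited, 1419 with array weights and 549 median-centred, against 885, and at 3 h 510 with array weights and 190 median-centred, against 304. Between the knockdown lines it was 5029 with array weights and 4830 with only the arrays compared, against 3168. Apart from the members named with such limits above, the cause of these changes was not tested. Members near the array median carry little signal over background, which shrinks their measured changes.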
